A study of Oryza sativa with 32 samples.

Results

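Transcript levels in rice panicles were compared between 14 h and 17.5 h after dawn, a step of the night that begins after dusk and ends before the last hours of darkness. The comparison takes every library titled with either of these times, 4 at 14 h and 4 at 17.5 h, which is 8 of the 32 libraries of a day-long series at 8 times (dawn, 3.5, 7 and 10.5 h after dawn, dusk, and 14, 17.5 and 21 h after dawn). It covers all 25766 genes with enough counts to be tested, out of 37829 gene identifiers in the count table. The plants were indica rice (Oryza sativa, variety IR64) from a Philippine field plot. They carried no treatment, and the panicles (the flowering heads) were collected at the stage of 50% flowering, so the 2 groups differ by label in the time of collection alone. Whether replicates are separate plants is not stated in the labels, and the p-values therefore cover the spread among these libraries only, some or all of which may be technical.

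Plants keep time with a circadian clock, a set of transcription factors and partner proteins that switch each other on and off over the day. The morning factor LHY, the pseudo-response regulators (PRR), GIGANTEA (GI) and the evening complex, which holds LUX and ELF3, follow each other as waves, and the clock sets when many genes of photosynthesis and starch use are transcribed. At night a plant lives on the starch and sugars stored by day. In a panicle at flowering, these processes run beside pollen maturation and the opening of the florets, and all these tissues were pooled in each library.

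The 8 libraries held 10759241 to 43876782 counts, a ratio of 4.06, with counts for 27133 to 31064 genes. The correlation between replicates of a time ran from 0.908 to 0.980 over log2 levels, across genes, and all replicate pairs differed by more than sampling noise. The 4 libraries of 14 h were not alike in tissue markers. The summed level of 6 tapetum genes (the tapetum is the anther cell layer that feeds pollen) was 24.9, 16.2, 24.3 and 7.58 TMM-scaled CPM (a gene's count relative to the effective total of its library, called CPM from here on) in replicates 1 to 4 of 14 h, and 6.57, 12.3, 9.61 and 7.73 CPM at 17.5 h. The summed level of 15 genes of cell division was 239, 476, 389 and 671 CPM at 14 h and 650, 616, 512 and 733 CPM at 17.5 h. Replicates 1 and 3 of 14 h were thus highest in tapetum genes and lowest in cell division genes, while replicate 4 of 14 h lay within or close to the range of 17.5 h in both. The summed level of 4 identifiers listed as mature pollen genes from general knowledge, an assignment that the reference table could not check, was 68.3, 28.3, 58.2 and 21.3 CPM at 14 h and 12.6 to 23.7 CPM at 17.5 h. The 16 floral organ identity genes summed to 2720 to 3170 CPM at 14 h and to 2774 to 2994 CPM at 17.5 h, so the labelled tissue carries its markers at a like level in all 8 libraries. Of the tapetum genes, EAT1 was at 0 counts in replicate 2 of 14 h, and at most 1 gene of the list was at 0 in any of the 8 libraries. In such mixed tissue, fewer cells of a type and less RNA per cell cannot be told apart.

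**Figure D1:**
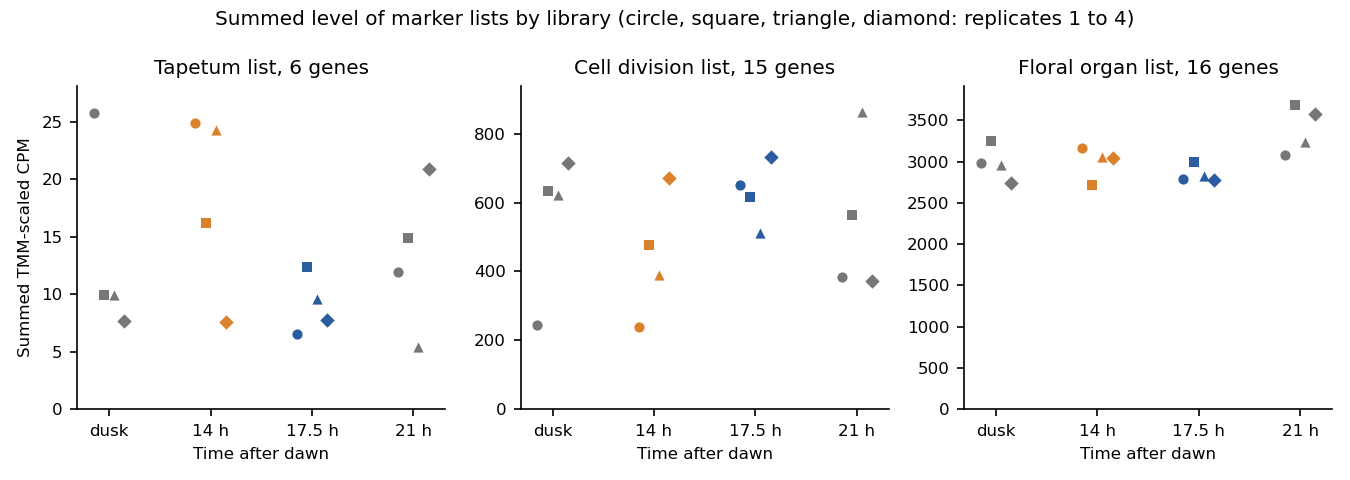
Summed level of 3 marker lists (TMM-scaled CPM, vertical axis) in each library at dusk, 14 h, 17.5 h and 21 h, with a marker shape for each replicate number. At 14 h the tapetum list spreads from 7.58 to 24.9 CPM and the cell division list from 239 to 671 CPM, while the floral organ list stays between 2720 and 3170 CPM.

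Between 14 h and 17.5 h, 354 of 25766 genes (1.37%) changed, by the quasi-likelihood test of edgeR with Benjamini-Hochberg adjustment at 0.05. Of these, 222 (0.862%) rose and 132 (0.512%) fell. The genes that fell included 4 clock genes, PRR73, PRR37, GI and LUX. Of the genes whose names could be checked, CAO1 (chlorophyll synthesis) and SSIIb (starch synthesis) rose, each as the only 1 of its list. So did RCA (carbon fixation) and DXS1 (carotenoid and plastid isoprenoid synthesis). These 2 calls were lost in 5 and 7, respectively, of 8 fits that each left out 1 library. The median change was 1.98-fold among genes that rose and 1.95-fold among genes that fell. A change over 4-fold was seen in 10 genes that rose and 10 that fell. Most changes were small: 114 of the rises and 68 of the falls were under 2-fold. The median log2 difference of all tested genes was -0.001 with TMM scaling, which centres the table, and 0.09 without it. The libraries of 14 h and 17.5 h did not overlap for 201 of the 222 genes that rose and 128 of the 132 that fell, and lack of overlap without regard to the test held for 2923 genes (11.3%), 1626 higher (6.31%) and 1297 lower (5.03%) at 17.5 h. An unadjusted p under 0.05 was reached by 5210 genes (20.2%). Genes that changed had more counts than most, with a median mean level of 32.4 CPM for rises and 20.5 CPM for falls beside 13.6 CPM over all tested genes. Leaving out single libraries moved the count from 100 (without replicate 1 of 14 h) to 509 (without replicate 4 of 14 h), and 86 genes (59 up and 27 down) were called in all 8 such fits. Without replicates 1 and 3 of 14 h, an alternative chosen after seeing the marker levels, 21 genes were called (12 up and 9 down), all of them among the 354. Of the 26 genes past the test that were picked for naming, PRR73, PRR37, GI, CATA and OS02G0829850 kept their call in that fit, and LIR1 had a log2 difference of -2.02 with an adjusted p of 0.0543 (edgeR).

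**Figure D2:**
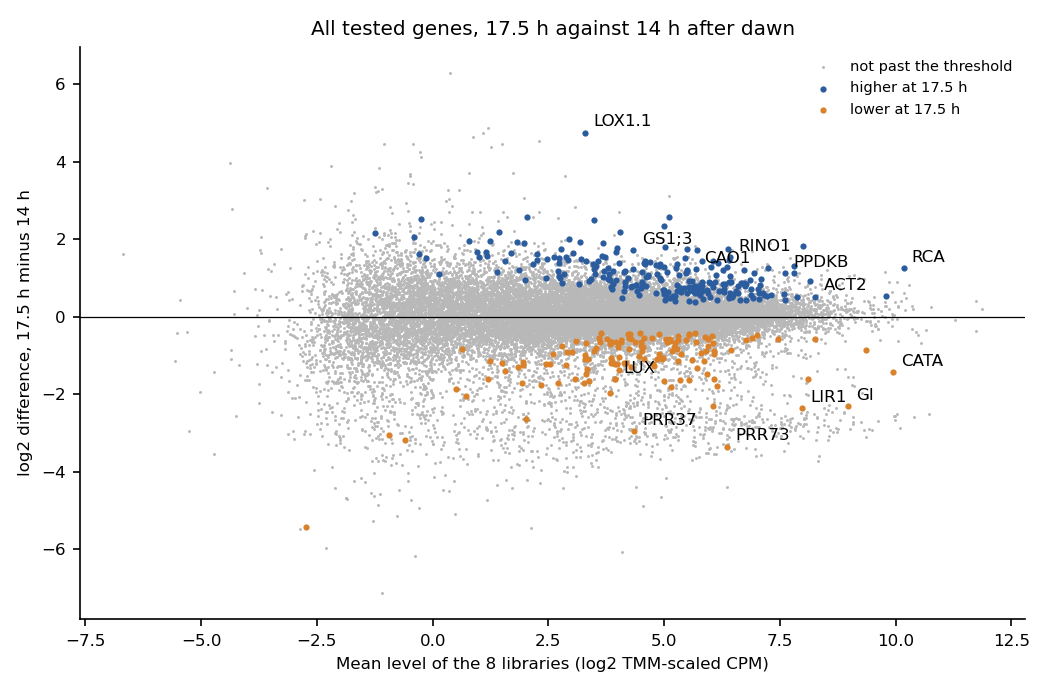
Every tested gene by its mean level in the 8 libraries (log2 TMM-scaled CPM, horizontal axis) and its log2 difference between 17.5 h and 14 h (vertical axis), with genes past the threshold in blue (222 higher at 17.5 h) and orange (132 lower). Grey points below -2 are genes over 4-fold lower on average that did not pass the test, of which there were 990.

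A large group of transcripts differed on average without passing the test. For 990 genes the fitted level was over 4-fold lower at 17.5 h, and the libraries of the 2 times overlapped for 911 of them. Their median level was 26.9, 10.7, 17.6 and 2.12 CPM in replicates 1 to 4 of 14 h and 0.930, 5.13, 1.48 and 0.293 CPM in replicates 1 to 4 of 17.5 h. Replicate 4 of 14 h was the lowest of its time for 907 of these genes, and replicate 2 of 17.5 h the highest of its time for 876. The same genes had medians of 24.0, 2.46, 3.99 and 2.12 CPM in the 4 dusk libraries, so 1 dusk library was as high as those of 14 h. The order of the libraries followed the tapetum sums given above in that replicate 4 was lowest among the 14 h libraries and replicate 2 highest among those of 17.5 h. The part of tissue makeup in these differences was not tested. In the other direction, 104 genes were over 4-fold higher on average without passing the test, and none of them reached 100 CPM at either time, against 216 of the 990.

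Clock genes were among the genes that fell. Of 8 core clock genes that could be named, 4 fell and none rose past the threshold, against 0.512% and 0.862% of all tested genes, and the median log2 difference of the 8 was -1.01. The pseudo-response regulators PRR73 and PRR37, repressors of the morning loop, fell the furthest of the named genes past the threshold. PRR73 (OS03G0284100) stood at 186, 117, 128 and 167 CPM at 14 h and at 16.2, 11.5, 17.9 and 12.9 CPM at 17.5 h. Every library of 17.5 h was far below every library of 14 h, and the log2 difference was -3.35 (SE 0.22, adjusted p = 1.08e-10, edgeR), a fall of 10.2-fold. PRR37 (OS07G0695100), which is also a regulator of heading date in rice, stood at 44.4, 30.8, 29.5 and 38.9 CPM at 14 h and at 4.32, 4.22, 5.55 and 4.37 CPM at 17.5 h. Again the groups were far apart, with a log2 difference of -2.96 (SE 0.19, adjusted p = 1.08e-10, edgeR). For both genes the mean at 17.5 h was the lowest of the 8 times, with PRR73 at 14.6 ± 2.94 CPM (SD, n = 4) at 17.5 h and 18.2 ± 5.18 CPM at 21 h, and PRR37 at 4.61 ± 0.625 and 5.57 ± 1.57 CPM.

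GI (OS01G0182600), a large protein that links the clock to flowering, also fell. Its level was 938, 732, 750 and 895 CPM at 14 h and 185, 150, 181 and 155 CPM at 17.5 h. The groups did not overlap, and the log2 difference was -2.31 (SE 0.16, adjusted p = 3.69e-10, edgeR), a fall of 4.94-fold. LUX (OS01G0971800), the DNA-binding member of the evening complex, had 34.4, 12.0, 21.4 and 23.9 CPM at 14 h and 7.98, 8.27, 7.97 and 5.86 CPM at 17.5 h. All 17.5 h libraries were below the lowest 14 h library, but the 14 h libraries spread widely, and the log2 difference was -1.61 (SE 0.35, adjusted p = 0.0174, edgeR). This call was lost when replicate 1 of 14 h or replicate 1, 2 or 3 of 17.5 h was left out (edgeR adjusted p from 0.0511 to 0.114), whereas those of PRR73, PRR37 and GI held in all 20 alternatives run.

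The other 4 clock genes did not pass the threshold. LHY (OS08G0157600), the morning transcription factor, was at 45.7, 42.8, 34.9 and 17.1 CPM at 14 h and at 61.4, 124, 91.3 and 53.3 CPM at 17.5 h. Its groups did not overlap. The log2 difference of 1.23 (SE 0.37) still had an adjusted p of 0.0905 in edgeR, with the spread estimated over all 32 libraries. It passed in 5 of the 20 alternatives. The adjusted p was 0.0272 without scaling and 0.0277 with the replicate number in the fit (both edgeR), and 0.0271 in DESeq2. With the pollen identifiers or the cell division list as a covariate it was 0.00603 and 0.000226 (edgeR). The pollen assignment was not checked. The cell division covariate was chosen after seeing the data, and its genes were themselves higher on average at 17.5 h. Over the alternatives the adjusted p of LHY ran from 0.000226 to 0.47, both ends in edgeR. PRR1, the rice counterpart of the Arabidopsis clock gene TOC1, averaged 42.0 ± 6.21 CPM at 14 h and 31.7 ± 1.75 CPM at 17.5 h (SD, n = 4), with an adjusted p of 0.183 in edgeR. PRR95 was at 11.7 ± 1.24 and 11.8 ± 1.56 CPM (SD, n = 4), having been at 77.5 ± 28.7 CPM at dusk. ELF3-1, a member of the evening complex, had 51.4 ± 5.61 and 44.5 ± 4.15 CPM (SD, n = 4), with overlapping libraries. Within 3.5 h, PRR73, PRR37, GI and LUX thus fell, while the mean of PRR95 was nearly the same at both times.

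**Figure D3:**
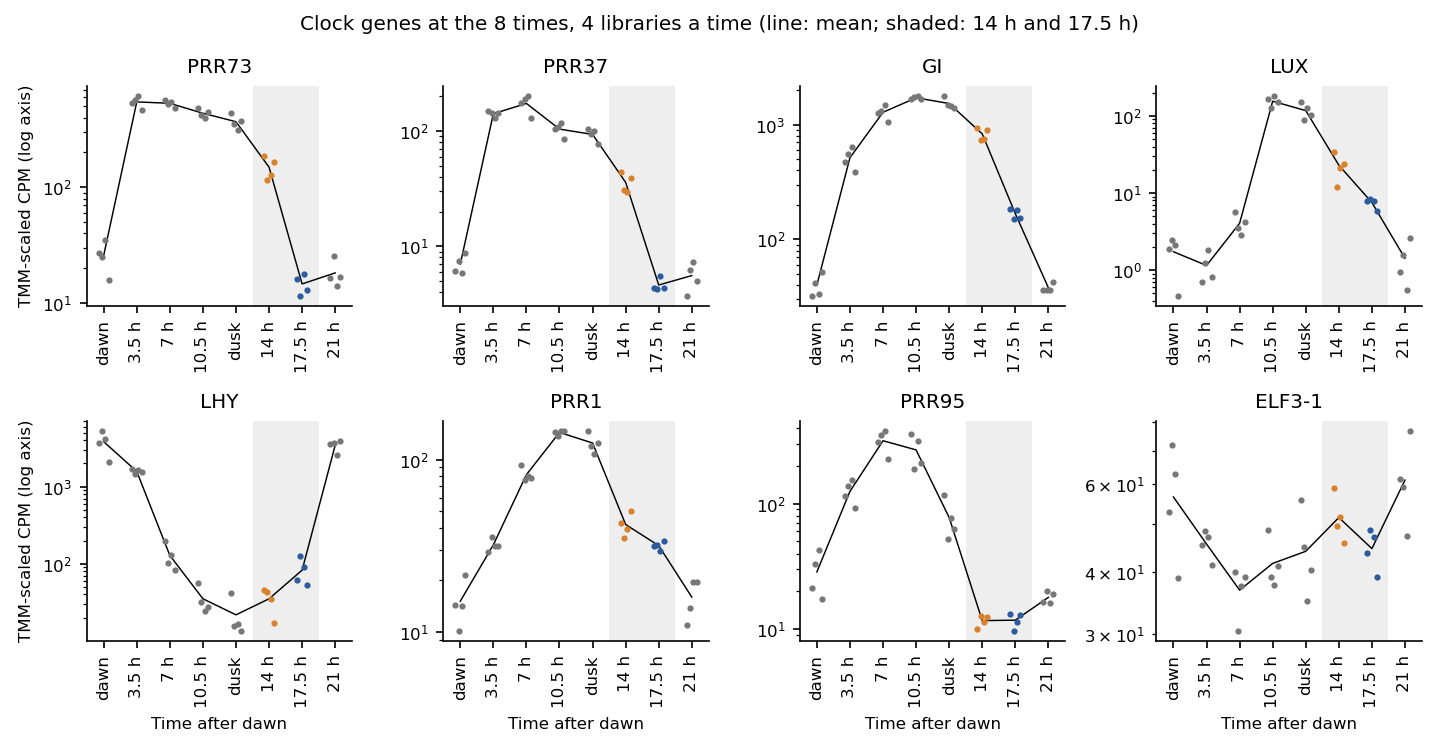
Level of 8 clock genes (TMM-scaled CPM, log axis) in the 4 libraries of each of the 8 times, with a line through the means and the step from 14 h (orange) to 17.5 h (blue) shaded. PRR73, PRR37 and GI drop within the shaded step without overlap, and the mean of LHY is 35.1, 82.6 and 3436 CPM at 14, 17.5 and 21 h.

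The step of some clock genes differed from the neighbouring steps of the night. For PRR73 the step from 14 h to 17.5 h minus the step from dusk to 14 h was -2.05 on the log2 scale (SE 0.33, adjusted p = 0.0133, edgeR). For PRR37 the difference was -1.58 (adjusted p = 0.0313) and for GI -1.43 (adjusted p = 0.0313), both in edgeR. PRR95 went the other way, with a difference of 2.75 (SE 0.47, adjusted p = 0.0173, edgeR), with means of 77.5 CPM at dusk, 11.7 CPM at 14 h and 11.8 CPM at 17.5 h. Over all genes, 14 of 25766 (0.0543%) differed between these steps, 11 (0.0427%) with a more positive and 3 (0.0116%) with a more negative step from 14 h to 17.5 h. The steps share the 14 h libraries, so a 14 h level that is off would move both in opposite ways, and leaving out replicate 1 of 14 h reduced the count from 14 to 1, with none of the 3 negative calls (PRR73, PRR37 and GI) left. Leaving out replicate 2 or 3 of 14 h gave 3 genes each, and other single libraries gave 5 to 15. LUX, which also fell, passed against neither neighbour, at 0.74 against the step before and 0.76 against the step after (adjusted p = 0.619 and 0.493, edgeR). Against the step from 17.5 h to 21 h, 170 genes (0.66%) differed, 75 (0.291%) in the positive and 95 (0.369%) in the negative direction. PRR73 and PRR37 were again among them, at -3.67 and -3.23 (adjusted p = 2.27e-06 for each, edgeR), with means at 21 h close to those at 17.5 h. For GI this difference was -0.16 (SE 0.27, adjusted p = 0.752, edgeR), and its level went on to 37.9 ± 3.22 CPM at 21 h. LHY differed in the sense of a faster later step, at -4.15 (SE 0.70, adjusted p = 0.00228, edgeR). Its mean reached 3436 CPM at 21 h.

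Outside the clock, the named genes LIR1 and CATA fell. LIR1 (OS01G0102900), a light-regulated gene for a chloroplast protein, was given its name after values were seen. It is 1 of the 4 largest falls among called genes without overlap and with at least 5 CPM at 1 of the times. Its level was 603, 270, 419 and 395 CPM at 14 h and 79.0, 89.8, 91.6 and 66.7 CPM at 17.5 h. The groups were well apart, and the log2 difference was -2.37 (SE 0.37, adjusted p = 7.27e-04, edgeR), a call held in all 8 fits without 1 library. CATA (OS02G0115700), a catalase, an enzyme that breaks down hydrogen peroxide, had 1978, 1008, 1337 and 1440 CPM at 14 h and 603, 527, 547 and 463 CPM at 17.5 h. The log2 difference was -1.43 (SE 0.19, adjusted p = 1.18e-04, edgeR), without overlap and held in all 20 alternatives. It was the only 1 of 14 redox genes past the threshold, beside 1.37% of all tested genes. The median log2 difference of the 14 was 0.07, and another catalase of the list, CATB, averaged 163 and 168 CPM at these times. PDHE1-B, a subunit of pyruvate dehydrogenase, the entry to the citrate cycle, was chosen after its values were seen. It went from 210 ± 54.5 to 141 ± 7.27 CPM (SD, n = 4), with a log2 difference of -0.58 (adjusted p = 0.0335, edgeR). That call was lost in 6 of the 8 fits that left out 1 library (replicates 1 and 3 of 14 h and all 4 of 17.5 h, edgeR adjusted p from 0.0567 to 0.308).

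A few genes of chlorophyll synthesis rose in mid night, of which CAO1 is the 1 from the list. CAO1 (OS10G0567400), the oxygenase that makes chlorophyll b from chlorophyll a, ranged from 22.7 CPM in replicate 1 to 39.5 CPM in replicate 4 at 14 h (31.0 ± 7.70, SD, n = 4) and stood at 69.1, 79.7, 83.6 and 56.5 CPM at 17.5 h (72.2 ± 12.1, SD, n = 4). The lowest library of 17.5 h was above the highest of 14 h, and the log2 difference was 1.22 (SE 0.23, adjusted p = 0.00466, edgeR). It was the only 1 of 10 chlorophyll synthesis genes of the list past the threshold, beside 1.37% of all tested genes. The median of the 10 was 0.13. CHLH, a subunit of magnesium chelatase, had 46.2 CPM at 14 h and 72.2 CPM at 17.5 h with an adjusted p of 0.192 (edgeR), while the other subunits CHLI and CHLD had log2 differences of 0.02 and -0.01. Outside the list, 2 more genes of the pathway, chosen after their values were seen, rose. HEMB, the porphobilinogen synthase early in the pathway, was at 76.1, 70.6, 75.1 and 91.6 CPM at 14 h and at 133, 146, 149 and 132 CPM at 17.5 h. CHLP, the reductase that makes the phytyl tail of chlorophyll, averaged 72.0 ± 9.82 and 131 ± 21.3 CPM (SD, n = 4). The log2 differences were 0.84 for HEMB (adjusted p = 0.00302) and 0.87 for CHLP (adjusted p = 0.0443), both in edgeR and without overlap. The call on CHLP was lost when any of the 4 libraries of 14 h or replicate 1, 2 or 3 of 17.5 h was left out (edgeR adjusted p from 0.0637 to 0.132), and those on CAO1 and HEMB held in all 8 such fits.

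In the plastid isoprenoid pathway, which supplies carotenoids and that same phytyl tail, DXS1 (OS05G0408900), its first enzyme, was at 43.7, 45.6, 45.6 and 44.2 CPM at 14 h and at 94.9, 115, 111 and 58.4 CPM at 17.5 h. The 14 h libraries lay almost on one level and all 17.5 h libraries were above them, with replicate 4 the nearest. The log2 difference was 1.08 (SE 0.28, adjusted p = 0.0461, edgeR). DXS1 was the only 1 of 9 genes of its list past the threshold, beside 1.37% of all tested genes. The synonym that checked its name was added after values were seen. The median of the 9 was 0.52, and the next steps DXR, HDS and HDR had positive differences of 0.63, 0.72 and 0.52 that did not pass (adjusted p = 0.103, 0.149 and 0.134, edgeR). The call on DXS1 was lost in 7 of the 8 fits without 1 library (all but replicate 4 of 17.5 h, edgeR adjusted p from 0.061 to 0.171), so it stands at the edge of the threshold.

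Of 5 carbon fixation genes, only RCA (OS11G0707000) passed the threshold, and it rose, beside 1.37% of all tested genes. Of the 5, 3 had positive and 2 negative differences, with a median of 0.15. RCA is Rubisco activase, which frees the active site of the carbon-fixing enzyme. Its level was 998, 593, 504 and 619 CPM at 14 h and 1289, 1900, 1709 and 1600 CPM at 17.5 h. Replicate 1 was the highest of 14 h and the lowest of 17.5 h, and the groups still did not overlap. The log2 difference was 1.26 (SE 0.30, adjusted p = 0.0260, edgeR), and the call was lost without replicate 2, 3 or 4 of 14 h or replicate 2 or 3 of 17.5 h (edgeR adjusted p from 0.053 to 0.0963). Only 3 antenna genes of 14 listed and 3 photosystem and electron transport genes of 12 listed could be named. All of these had negative differences, none past the threshold, with medians of -0.99 and -0.29. Of all tested genes, 49.9% had positive differences. LHCB2, an antenna protein of photosystem II, had 62.0, 46.7, 50.5 and 57.5 CPM at 14 h and 25.5, 27.1, 21.9 and 19.1 CPM at 17.5 h. Its groups did not overlap, but the adjusted p was 0.121 (edgeR), and near-identical copies of antenna genes can share reads. LHCB2 passed in 3 of the 20 alternatives. The adjusted p was 0.0159 with only the libraries of the contrast fitted and 0.0381 with the replicate number in the fit (both edgeR). In DESeq2 it was 0.044. Its step differed from the next one by -4.39 (SE 0.77, adjusted p = 0.00319, edgeR), with a mean of 213 ± 100 CPM (SD, n = 4) at 21 h.

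**Figure D4:**
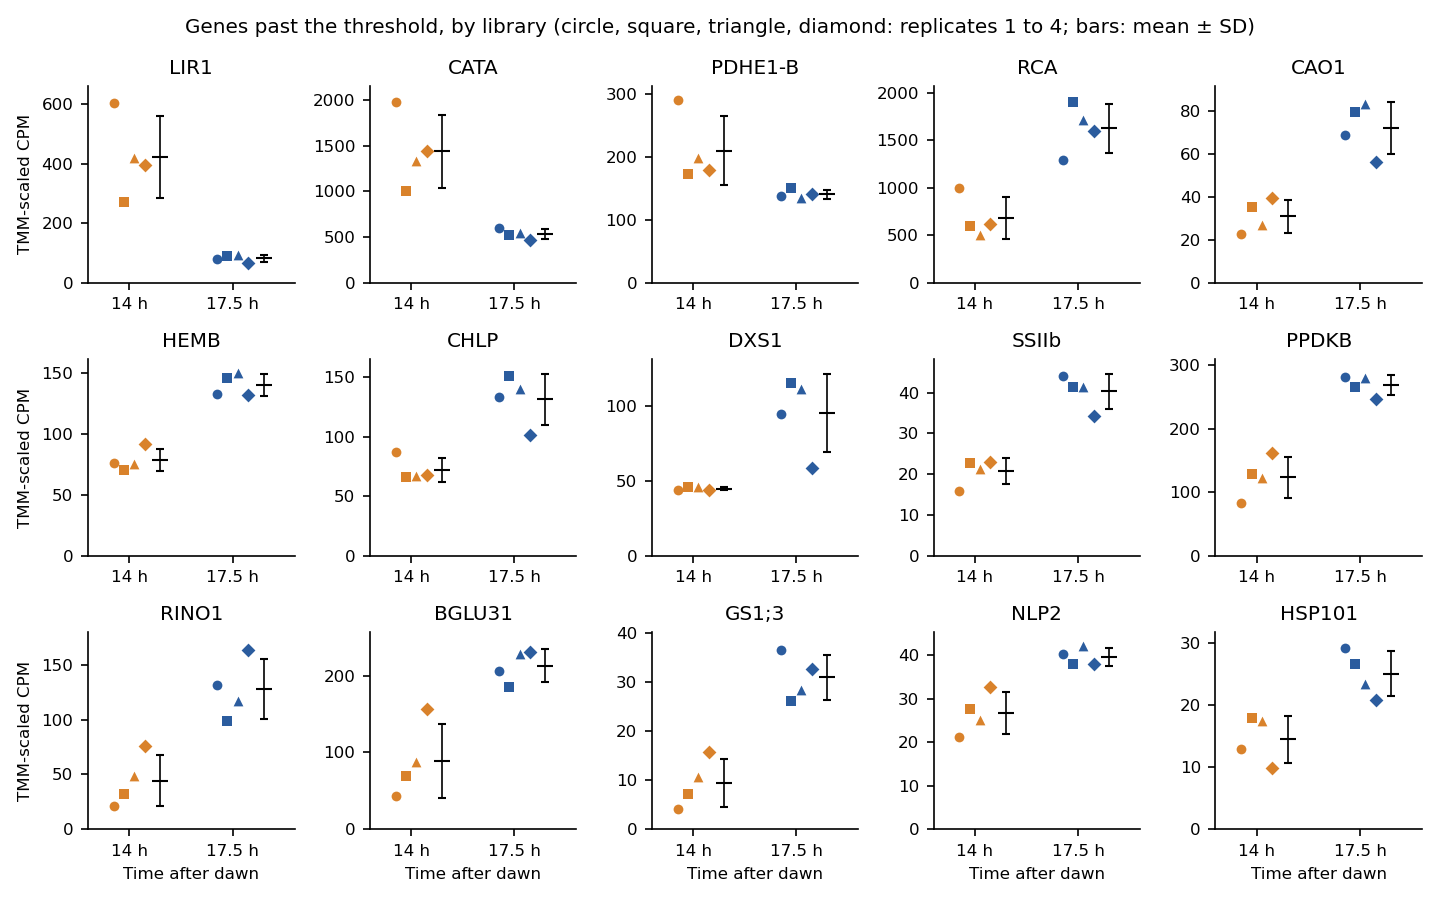
Level (TMM-scaled CPM, each axis from 0) of 15 genes past the threshold in each library of 14 h (orange) and 17.5 h (blue), with a marker shape for each replicate number and the mean ± SD of 4 libraries beside them. LIR1, CATA and PDHE1-B are lower at 17.5 h and the other 12 higher, none with overlapping libraries.

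Among the starch and sugar genes with a checked name, 1 passed the threshold, beside 1.37% of all tested genes. Of 8 starch synthesis genes with a checked name, from 24 listed, SSIIb (OS02G0744700), a soluble starch synthase, rose. It went from 16.0, 22.9, 21.4 and 23.0 CPM to 44.1, 41.4, 41.3 and 34.3 CPM. The log2 difference was 0.95 (SE 0.17, adjusted p = 0.00265, edgeR), without overlap and called in all 8 fits without 1 library. The other 7 did not pass, and the median of the 8 was 0.28. OS04G0624600 and OS07G0412100, listed for starch synthesis without a checked name, also rose, with log2 differences of 1.049 and 1.756. Both were called in all 8 fits without 1 library. OS04G0624600 was called in all 20 alternatives, whereas OS07G0412100 lost its call without replicates 1 and 3 of 14 h. Of 5 starch breakdown genes with a checked name, from 12 listed, none passed. Of these, 3 had negative and 2 positive differences, and the median was -0.95. OS10G0565200, listed for starch breakdown without a checked name, rose from 10.5 ± 3.51 to 53.0 ± 18.5 CPM (SD, n = 4). Its log2 difference was 2.33 (adjusted p = 0.00551, edgeR), without overlap and called in all 8 fits without 1 library. DPE2, a glucanotransferase that handles maltose in the cytosol, had 477, 289, 424 and 181 CPM at 14 h and 134, 215, 160 and 160 CPM at 17.5 h. Its libraries overlapped through replicate 4 of 14 h, the library with the lowest tapetum sum of its time, and the adjusted p was 0.171 (edgeR). The part of tissue makeup in the levels of DPE2 was not tested. DPE1 and the maltose exporter MEX1 had log2 differences of -1.07 and -0.95, with adjusted p of 0.174 and 0.245 (edgeR). The amylases AMY2A and AMY3D had positive differences of 0.46 and 0.04, with adjusted p of 0.515 and 0.982 (edgeR). Of 21 genes for sucrose, invertases, sugar transport and trehalose, none passed (median 0.02). The lowest p was that of CIN1, a cell wall invertase, at 153 ± 24.5 and 236 ± 42.8 CPM (SD, n = 4) with an adjusted p of 0.0576 (edgeR), and it passed without replicate 4 of 17.5 h.

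A few other genes for enzymes, chosen after their values were seen, rose. PPDKB (OS05G0405000), a pyruvate orthophosphate dikinase, was at 83.0, 129, 122 and 162 CPM at 14 h and at 282, 266, 280 and 247 CPM at 17.5 h. The log2 difference was 1.12 (SE 0.20, adjusted p = 0.00265, edgeR), without overlap. RINO1, the synthase that makes the precursor of inositol and phytate, rose from 44.2 ± 23.6 to 128 ± 27.5 CPM (SD, n = 4). BGLU31, of the beta-glucosidase family, rose from 89.2 ± 48.1 to 213 ± 21.5 CPM (SD, n = 4). The log2 differences were 1.53 for RINO1 (adjusted p = 0.0245) and 1.26 for BGLU31 (adjusted p = 0.0161), both in edgeR. At 14 h both were lowest in replicate 1 (21.5 and 43.6 CPM) and highest in replicate 4 (75.5 and 156 CPM), which is the order of the cell division sums at its ends, and the part of tissue makeup in these rises was not tested. Left out singly, 6 libraries ended the call on RINO1 (all but replicate 4 of 14 h and replicate 2 of 17.5 h, edgeR adjusted p from 0.0551 to 0.146) and 4 that on BGLU31 (replicates 1, 2 and 3 of 14 h and 3 of 17.5 h, edgeR adjusted p from 0.0539 to 0.0949). PPDKB held in all 8.

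In nitrogen assimilation, GS1;3 (OS03G0712800), a cytosolic glutamine synthetase, was the only 1 of 8 genes past the threshold, beside 1.37% of all tested genes. It stood at 4.09, 7.24, 10.7 and 15.6 CPM at 14 h and at 36.6, 26.1, 28.4 and 32.8 CPM at 17.5 h, a log2 difference of 1.72 (SE 0.45, adjusted p = 0.0492, edgeR). The groups were apart, but 14 h again ran from replicate 1 as the lowest to replicate 4 as the highest, and the call was lost in 7 of the 8 fits without 1 library (all but replicate 4 of 14 h, edgeR adjusted p from 0.0668 to 0.262). The plastid isoform GS2 was at 556 and 535 CPM. NLP2, of the NIN-like family of nitrate-response factors known from Arabidopsis, was chosen after its values were seen. It rose from 21.2, 27.7, 25.1 and 32.7 CPM to 40.3, 37.9, 42.0 and 38.1 CPM (adjusted p = 0.0148, edgeR), without overlap, a call lost without replicate 1 or 3 of 14 h or replicate 3 of 17.5 h (edgeR adjusted p from 0.0566 to 0.103). Among 6 chaperone genes, HSP101, the disaggregase of heat-stressed cells, rose from 14.4 ± 3.84 to 25.0 ± 3.64 CPM (SD, n = 4; adjusted p = 0.0426, edgeR), a call lost without replicate 1, 3 or 4 of 14 h or 1, 2 or 3 of 17.5 h (edgeR adjusted p from 0.051 to 0.196). HSP101 was the only 1 of the 6 past the threshold. The small heat shock proteins of the list did not pass, and neither did any of 13 heat shock factors. The lowest p of these factors was that of HSFB2a at 1.72 and 2.64 CPM (adjusted p = 0.273, edgeR).

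No member with a checked name passed the threshold in 22 of the 30 lists with tested genes. Among them were the flowering, hormone, water channel and tissue lists. Of all tested genes 1.37% passed, and at that share lists this short would mostly hold none. In the flowering list (13 genes, median 0.16), MADS14, a floral meristem gene, had the lowest p, at 40.7 ± 7.00 and 60.3 ± 9.28 CPM (SD, n = 4; adjusted p = 0.0857, edgeR), and it passed without replicate 4 of 17.5 h. Hd3a, a mobile flowering signal, had few counts, with means of 2.17 and 3.18 CPM at these times. Of 5 photoreceptor genes, phytochrome PHYC had the lowest p, at 52.5 and 40.5 CPM (adjusted p = 0.186, edgeR). FdGOGAT, the glutamate synthase of photorespiration, had 961 and 1260 CPM (adjusted p = 0.155, edgeR), and the chlorophyll breakdown gene SGR had 11.5 and 17.5 CPM (adjusted p = 0.157, edgeR).

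Among the hormone lists the same held. The jasmonate repressor TIFY10C was at 39.6 ± 5.48 and 58.8 ± 5.58 CPM (SD, n = 4; adjusted p = 0.155, edgeR), and the median of 18 jasmonate genes was 0.20. The gibberellin signalling F-box gene GID2 was at 136 ± 11.1 and 175 ± 6.32 CPM (SD, n = 4; adjusted p = 0.0795, edgeR), without overlap. ABA8ox1, which breaks down abscisic acid, had 69.0, 61.6, 70.9 and 5.76 CPM at 17.5 h, so replicate 4 alone lay below all 4 libraries of 14 h (13.3 to 27.4 CPM). EIN2 of ethylene signalling, the cytokinin response regulator RR9 and the brassinosteroid synthesis gene D2 had adjusted p of 0.188, 0.440 and 0.260 (edgeR). The cold-response factor DREB1G was near the detection floor at 14 h (0.234 to 0.406 CPM) and at 4.86, 1.74, 2.58 and 0.213 CPM at 17.5 h, with an adjusted p of 0.0905 (edgeR). Its relatives DREB1A and DREB1B had means of 0.280 and 0.323 CPM at 14 h and 2.69 and 1.71 CPM at 17.5 h, with adjusted p of 0.109 and 0.143 (edgeR). At 21 h DREB1G was below the level of 3 counts in a library. Among 13 aquaporins the lowest p was that of PIP1;2, at 297 ± 39.7 and 470 ± 88.6 CPM (SD, n = 4; adjusted p = 0.112, edgeR).

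In the tissue lists, all 15 cell division genes were higher on average at 17.5 h (median log2 difference 0.56) and 5 of 6 tapetum genes lower (median -1.71), and none passed in either list. CDKA2, a cyclin-dependent kinase, had 20.4 ± 3.76 and 26.3 ± 1.25 CPM (SD, n = 4; adjusted p = 0.169, edgeR). The tapetum regulators EAT1 and TDR had means of 0.548 and 9.56 CPM at 14 h and 0.122 and 2.15 CPM at 17.5 h (adjusted p = 0.231 and 0.268, edgeR). MADS34 of the floral organ list was at 28.1 and 19.9 CPM (adjusted p = 0.233, edgeR), and the storage protein gene GluA2, the single endosperm gene tested, was at 8.00 and 6.21 CPM (adjusted p = 0.249, edgeR). Of the 3 common reference genes none passed, with eIF4A at 413 ± 37.9 and 551 ± 61.6 CPM (SD, n = 4; adjusted p = 0.0957, edgeR). ACT2, another actin gene, chosen after its values were seen, rose from 267, 190, 231 and 324 CPM to 352, 371, 384 and 345 CPM (adjusted p = 0.0384, edgeR), without overlap. That call was lost without replicate 1, 2 or 3 of either time (edgeR adjusted p from 0.0898 to 0.138).

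The 4 largest rises that met the naming rule all belong to identifiers without a checked name. The largest was OS02G0829850, at 1.28, 1.16, 0.947 and 1.38 CPM at 14 h and at 5.79, 6.95, 8.52 and 6.77 CPM at 17.5 h. Its libraries were tight at both times, the log2 difference was 2.57 (SE 0.32, adjusted p = 5.71e-05, edgeR), and the call held in all 20 alternatives. Its mean then reached 88.5 ± 28.5 CPM (SD, n = 4) at 21 h. OS08G0489300 was at 2.45, 6.20, 11.4 and 19.7 CPM at 14 h and at 56.7, 37.6, 61.2 and 77.9 CPM at 17.5 h, a log2 difference of 2.56 (SE 0.60, adjusted p = 0.0252, edgeR). It was lowest in replicate 1 and highest in replicate 4 of 14 h, and its call was lost without replicate 1, 2 or 3 of 14 h or 1 or 3 of 17.5 h (edgeR adjusted p from 0.0586 to 0.125). The remaining gene among the 4 largest falls, OS06G0480500, went from 6.92 ± 4.54 to 1.12 ± 0.851 CPM (SD, n = 4; adjusted p = 0.0384, edgeR), lost without replicate 1 or 3 of 14 h or 1, 3 or 4 of 17.5 h (edgeR adjusted p from 0.0658 to 0.225).

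The time of the highest mean was taken for each gene that changed. Of the 222 that rose, 88 had their highest mean at 21 h, 52 at 3.5 h, 33 at 17.5 h and 31 at dawn, and none at dusk. A highest mean at 14 h is excluded by the choice of rising genes, as is 17.5 h for falling genes. Of all 25766 tested genes, 9.66% had their highest mean at 21 h, 13.8% at 3.5 h, 15.0% at 17.5 h, 13.2% at dawn and 14.3% at dusk. Of the 132 that fell, 73 had their highest mean at 10.5 h, 16 at dusk, 15 at 7 h and 14 at 14 h, where the shares of all tested genes were 13.1%, 14.3%, 10.9% and 9.96%. The lowest mean of the falling genes was at 17.5 h for 41, at 21 h for 40 and at dawn for 35. These times are a description of the same libraries. The means of dusk and 21 h do not enter the difference between 14 h and 17.5 h, but these libraries share in the estimate of spread behind its p-values. Between dusk and 21 h 6574 genes changed (25.5%), 3140 up (12.2%) and 3434 down (13.3%) by 21 h. Of the 222 genes that rose in mid night, 191 were also called higher at 21 h than at dusk and 1 lower. Of the 132 that fell, 104 were also called lower and none higher. RCA had 222 ± 38.5 CPM at dusk and 5515 ± 1400 CPM at 21 h (SD, n = 4), and CATA had 3536 ± 625 and 263 ± 41.7 CPM, so each moved in mid night in the direction of the whole night. GS1;3 was not called between dusk and 21 h (adjusted p = 0.414, edgeR), with means of 14.5 ± 2.28 and 21.0 ± 7.22 CPM (SD, n = 4) there.

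**Figure D5:**
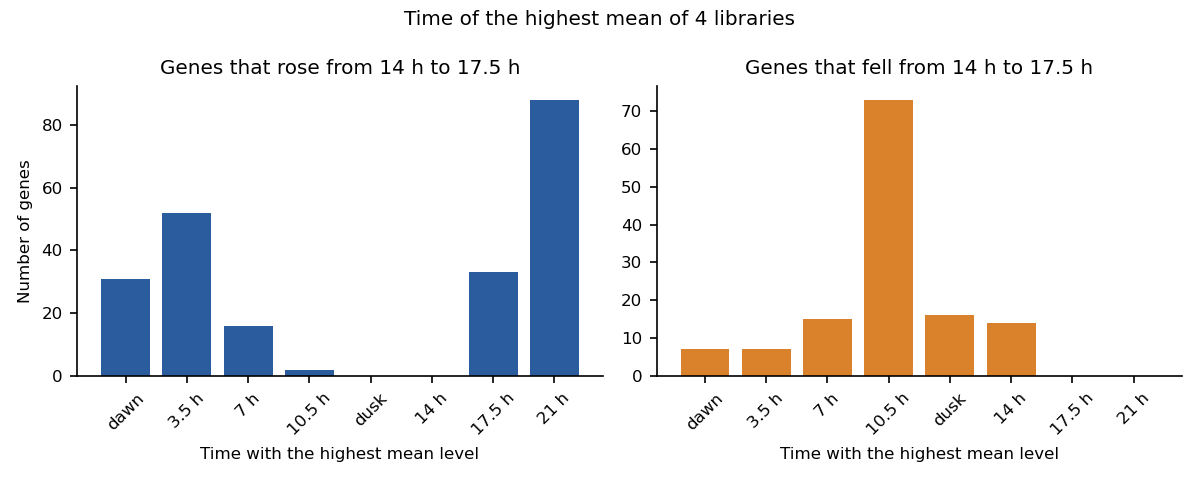
Number of genes (vertical axis, from 0) by the time of day with the highest mean of 4 libraries, for the 222 genes that rose from 14 h to 17.5 h (left) and the 132 that fell (right). The rising genes peak mostly from 21 h to 3.5 h, with 88 at 21 h, and 73 of the falling genes peak at 10.5 h.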

How the data were processed

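Poly(A) RNA of 32 rice panicle samples was sequenced, 4 at each of 8 times, after a directional (strand-keeping) library preparation, per the labels' protocols. TopHat2 (version 2), HTSeq (version 0.6.0) and the build IRGSP-1.0 are named in the submitters' processing notes. How strand was set in counting, and which annotation release was used, is not given in the sources used here. Per gene, the authors deposited whole-number counts, and a CPM table that equals the count over the library total, used only to check that scaling.

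Groups come from the sample titles. Counts were tested with edgeR 4.0.16 in R 4.3.3 (quasi-likelihood test, TMM factors, filterByExpr, 1 mean per time over all 32 libraries with 24 residual degrees of freedom, Benjamini-Hochberg at 0.05 over 25766 genes). The SE is the log2 difference over the root of F. Contrasts were 17.5 h minus 14 h, that step minus each neighbouring step, and 21 h minus dusk. The procedure was run on simulated data with known changes. Those counts were drawn independently by gene and library, so they do not cover the shared differences among the 14 h libraries. Alternatives used DESeq2 1.42.0 and limma 3.58.1 among others. Levels are TMM-scaled CPM. A count of 3, the floor, is 0.068 to 0.279 CPM by library and covers counting error only. No rows of the tables name anything but genes.

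The files hold identifiers without names. Of 405 pairs of symbol and identifier in 32 lists written from general knowledge, 267 had their symbol in the reference table (assembly ASM3414082v1) on the chromosome and at the place in the gene order that the identifier gives, and only these are named. The 138 others were not used, apart from the pollen identifiers and the starch-list identifiers OS04G0624600, OS07G0412100 and OS10G0565200. These starch-list identifiers are given without a name, and their place on the lists was brought in after values were seen. A synonym that checks DXS1, and 10 further pairs (LIR1, PPDKB, RINO1, BGLU31, CHLP, HEMB, ACT2, NLP2, PDHE1-B and LOX1.1), were added after values were seen. Coordinates are not given, since the table's assembly is not the build of the files. The comparison, its members and lists were chosen with earlier results of these data known. By rule, every core clock gene was named. So were up to 4 genes past the threshold per other list, or the 1 with the lowest p. The rule also took the 4 largest rises and falls past the threshold with at least 5 CPM at 1 of the times and no overlap. Of these, at most 2 unnamed identifiers a direction were to be given. The starch-list identifiers above are given beyond that limit.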

Additional observations from a re-analysis of the deposited data

Results flagged for a closer look

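In a group of 4 libraries, a value was marked where its gap to the nearest other library took more of the range than Dixon's 95% critical value for 4 samples allows, which chance gives in about 1 of 20 groups. Of 114 groups checked (52 genes and 5 marker lists at both times), 9 were marked. At 17.5 h, replicate 1 stood apart for LOX1.1, a lipoxygenase chosen after its values were seen, at 71.8 CPM beside 1.90, 0.703 and 1.01 CPM, and this library decides its call. LOX1.1 had 0.117, 1.16, 1.15 and 0.244 CPM at 14 h, a log2 difference of 4.75 (adjusted p = 0.0261, edgeR), and 0.81 (adjusted p = 0.655) without replicate 1 of 17.5 h. It was also lost without any single library of 14 h (edgeR adjusted p from 0.0544). Replicate 4 of 17.5 h stood apart for LUX (5.86 CPM), MADS14 (46.4 CPM), ABA8ox1 (5.76 CPM) and PIP1;2 (338 CPM), lower each time, and replicate 3 for PRR37 (5.55 CPM, higher). At 14 h replicate 1 was high for PHYC (63.5 CPM), PSAH (330 CPM) and CHLP (86.8 CPM).

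Steps that differed by their own test (edgeR, adjusted p under 0.05) are given as log2 differences. Against the step from dusk to 14 h these were -2.05 for PRR73, -1.58 for PRR37, -1.43 for GI and 2.75 for PRR95. Against the step from 17.5 h to 21 h they were -3.67 for PRR73, -3.23 for PRR37, -4.15 for LHY, -4.39 for LHCB2, 8.63 for DREB1G, 1.53 for TIFY10C and 10.15 for LOX1.1, the last resting on the same library of 17.5 h. The value for DREB1G depends on counts near 0, since its mean at 21 h was below the level of 3 counts in a library.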

How the results depend on the processing

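Of 354 genes changed between 14 h and 17.5 h, none had the opposite sign under any alternative, but their number depended on the libraries. It was 1507 with DESeq2 (352 of the 354 among them), 111 with only the libraries of the contrast fitted (95 shared), 209 with the pollen identifiers as a covariate (171 shared) and 21 without replicates 1 and 3 of 14 h. Leaving out single libraries gave 100 to 509. The other alternatives (RLE factors, no scaling, other filters, limma-trend, thinned counts and the cell division covariate) gave 277 to 390. Without scaling, 251 were higher and 102 lower, against 222 and 132, and the cell division covariate gave 267 and 90.

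For the difference from the step before, 14 genes in the main test became 61 with DESeq2, 1 with only the libraries of the contrast, 9 with the pollen covariate and 0 without dusk replicate 1 and 14 h replicates 1 and 3, with 1 to 15 on leaving out single libraries. For the difference from the step after, 170 became 833 with DESeq2, 274 without scaling (187 positive and 87 negative, with the median of all genes at 0.34 instead of 0.05), 72 with the pollen covariate, 72 without 14 h replicates 1 and 3, and 65 to 225 on leaving out single libraries. Between dusk and 21 h, 6574 became 4201 with only the libraries of the contrast, and 2023 higher with 4380 lower genes without scaling, where the median of all genes was -0.21.

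Whether shared replicate numbers pair the samples cannot be told from these values. Deviations of same-numbered libraries of 14 h and 17.5 h correlated at -0.42, 0.13, 0.09 and 0.63. Those of differently numbered libraries correlated at -0.63 to 0.39. A fit with the replicate number as a block called 444 genes (340 of the 354) between 14 h and 17.5 h, 13 and 159 for the differences from the step before and after, and 6725 between dusk and 21 h. LHY (adjusted p = 0.0277) and LHCB2 (adjusted p = 0.0381) passed under this block, in edgeR.

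Over 52 genes with values, 853 of 1035 recomputed values stayed on their side of the threshold, 156 lost and 20 gained a call, and 6, all of PRR95 or ELF3-1 and all uncalled, changed sign. Alternatives leaving out replicates 1 and 3 of 14 h or using the cell division list were chosen after seeing the data. The smallest library, with 10759241 counts, limits genes with few counts.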
